A study of Rattus norvegicus with 13 samples.

Results

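Hox genes encode homeodomain transcription factors that lie in 4 clusters, HoxA to HoxD, and their order along each cluster follows the order of their expression along the head to tail axis of the embryo. Genes at matching places in the different clusters form paralog groups, numbered from 1 at the head end to 13 at the tail end. In the pharynx, where the thyroid arises, the low-numbered groups are active, and paralog group 3 is known for its part in forming the thyroid, parathyroid and thymus. The genes described here are those that the array names as Hox, a letter a to d and a number. There were 29 such genes, carried by 40 probes, among the 36174 gene names of the array, and each gene was represented by its brightest probe.

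The tissue was thyroid of male Wistar rats, 6 in the KI-treated group and 7 in the control group, with 1 single-colour array per rat. The mothers of the KI-treated group received potassium iodide (KI), the salt used to block uptake of radioactive iodine by the thyroid, by gavage at 1 mg/kg for 8 days from gestational day 9, and the mothers of the control group received saline. The progeny were sampled 51 days after birth, so the exposure took place in the womb and the measurement in the grown animal. The litters of the rats were not given, and littermates could not be told apart from unrelated animals, so p-values measure only the spread between these 13 animals. The comparison asks whether Hox expression in the thyroid differed between the progeny of KI-treated and of control mothers.

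A level below is the log2 processed signal of a probe minus the 75th percentile of its array, so 0 is a bright probe, and a level is compared only with levels of the same probe. A probe was counted as detected on an array where the scanner software marked it well above background, and a gene was tested where this held on at least 6 of the 13 arrays. Positions are those of the array design, on rat assembly rn4.

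Between 34840 and 41050 of 58717 gene spots were well above background on an array, and none was saturated. Thyroid follicle markers were present as labelled, with 10 of 11 on all 13 arrays and Slc26a4, which encodes pendrin, on fewer than 6. Cells of neighbouring tissue also gave signal. Detected on at least 6 arrays were 5 of 5 C cell, 3 of 3 parathyroid and 9 of 10 skeletal muscle markers. So were 6 of 6 adipocyte, 7 of 7 fibroblast, 5 of 5 endothelial and 5 of 5 nerve markers. The same held for 6 of 6 airway and oesophagus and 4 of 4 red blood cell markers. Cartilage markers were on at least 6 arrays for 5 of 9 genes, and on all 13 for 2. Acan, Matn1, Matn3 and Hapln1 were on fewer than 6. Over all genes of the array, 57.3% reached 6 arrays by their brightest probe. By the same count lymphocyte markers were detected for 2 of 5 genes and thymus markers for 0 of 3, though KI 1 stood out for both lists, as given below. The arrays came from 6 slides and 3 scan sessions, each session with rats of both groups.

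Detection differed between parts of the clusters. Of the 29 Hox genes, 11 were detected on at least 6 arrays and 8 on all 13, while 12 were detected on no array. Over the whole array 56.4% of probes were detected on at least 6 arrays, 45.4% on all 13 and 28.6% on none. In paralog groups 1 to 3, 2 of 6 genes reached 6 arrays, and in groups 4 to 8, 8 of 11. In groups 9 to 13, 1 of 12 did, and in groups 10 to 13, 0 of 8. These counts go by the array's names. The gene it names Hoxa9 has the accession of Hoxa7 in RefSeq (GRCr8), and counted as such it makes groups 4 to 8 hold 8 of 12 and groups 9 to 13 hold 1 of 11. Probes listed under other names are left out of all these shares. By such probes Hoxb2 was detected on 9 arrays, Hoxa3 on 10, and Hoxa4, Hoxa5 and Hoxd8 on 13 each. Hoxc11 was detected on 4, and Hoxb1, Hoxa10 and Hoxc13 on 0. These shares describe which probes gave signal in a piece of whole tissue, and fewer cells of a type and less RNA per cell cannot be told apart.

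**Figure D1:**
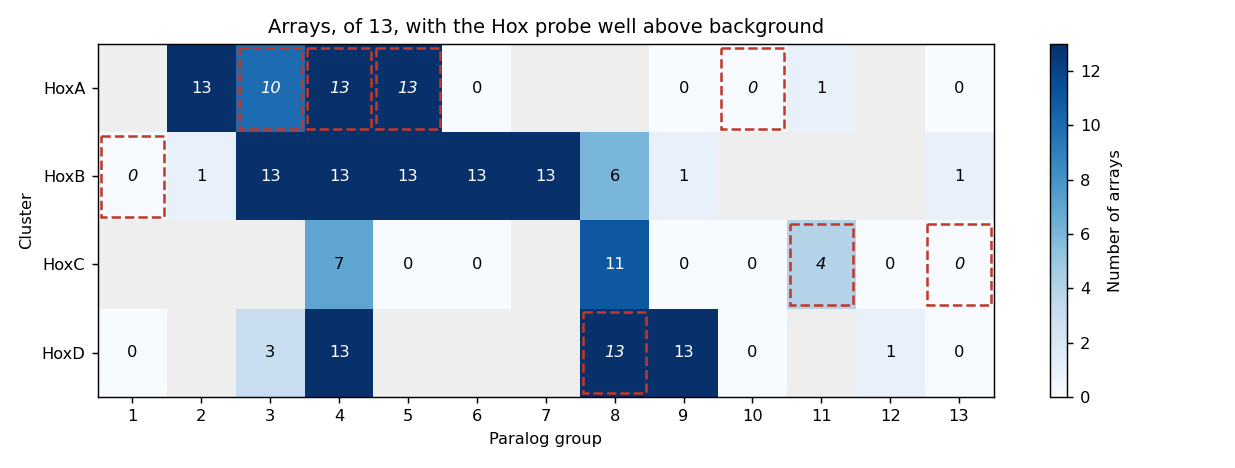
Number of the 13 arrays on which each Hox gene was well above background, with clusters as rows and paralog groups, by the array's names, as columns. A gene with a probe under its Hox name is drawn by the brightest such probe only. Other probes of Hoxb2, Hoxc6 and Hoxa6, not drawn, were detected on 9, 3 and 1 arrays. Dashed frames with italic numbers are genes listed on the array under another name and identified by the files' description, and grey cells have no probe under either or are not reported. Counts of 13 run without a break from group 3 to group 7 of HoxB, and the cells of groups 10 to 13 hold 0 to 4.

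HoxB gave the longest run. Hoxb3, Hoxb4, Hoxb5, Hoxb6 and Hoxb7 were each detected on all 13 arrays, with probes spread over chromosome 10 from 85020791 (Hoxb7) to 85080551 (Hoxb3). Towards the tail end of the cluster Hoxb8, at 85015077 to 85015136, was detected on 6 arrays, 3 in each group. Hoxb9, at 85005604, was detected on 1 array and Hoxb13, at 84927734, on 1. Towards the head end, the probe named Hoxb2, which has no position in the files, was detected on 1 array.

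In HoxA, Hoxa2 was detected on all 13 arrays. Hoxa6, Hoxa13 and the gene named Hoxa9 were detected on 0 arrays and Hoxa11 on 1. In HoxC, Hoxc4 was detected on 7 arrays and Hoxc8 on 11, and Hoxc5 and Hoxc6, which lie between them, on 0, as were Hoxc9, Hoxc10 and Hoxc12. In HoxD, Hoxd4 (chromosome 3, 57346311 to 57346370) and Hoxd9 (57314446 to 57314505) were detected on all 13 arrays. Hoxd10, whose probe begins at 57309214, was detected on none, Hoxd3 was detected on 3 arrays, Hoxd12 on 1, and Hoxd1 and Hoxd13 on 0.

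The number of Hox genes detected per rat was close in the 2 groups. It was 9 to 13, with a median of 10.5, in the KI-treated group and 8 to 12, with a median of 11, in the control group.

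Probes of related Hox genes share sequence, so the letters behind a few of the counts are given. In 5 of the 29 brightest probes the 60 bases cover the end of the homeobox, the part of the gene that encodes the DNA-binding helix. Capitals mark the 15 bases that begin at the methionine codon of this helix end, and the sequences are those of the array design. The probe with most arrays is shown with 4 probes that were detected on 0 to 3.
Hoxb8, detected on 6 arrays: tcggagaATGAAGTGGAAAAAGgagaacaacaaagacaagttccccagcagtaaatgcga
Hoxa6, detected on 0 arrays: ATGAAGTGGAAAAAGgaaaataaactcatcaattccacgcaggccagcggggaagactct
Hoxd3, detected on 3 arrays: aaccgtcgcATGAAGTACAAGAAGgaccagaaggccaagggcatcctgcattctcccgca
Hoxd12, detected on 1 array: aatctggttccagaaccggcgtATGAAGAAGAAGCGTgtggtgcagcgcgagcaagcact
Hoxc12, detected on 0 arrays: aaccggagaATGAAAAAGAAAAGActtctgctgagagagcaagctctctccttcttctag

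The probes of Hoxb8 and Hoxa6 had 15 of the 15 capital bases in common and 31 of 53 bases over the whole of their overlap. Hoxc12 and Hoxd12, which belong to the same paralog group, shared 34 of 47 aligned bases. Outside the capitals the probes of Hoxb8 and Hoxa6 differed, and so did their counts, with 6 arrays for Hoxb8 and 0 for Hoxa6.

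A step from a gene detected on every array to one detected on none was seen in 2 clusters. In HoxA it lay between Hoxa5, listed under another name, and Hoxa6, by its named probe. In HoxD it fell between the neighbours Hoxd9 and Hoxd10, and this HoxD step is shown here. The 250 bases before the RefSeq start of the 2 genes on either side of this step, and of Hoxd8 next to them, are shown with every CG in capitals. All are on the plus strand of chromosome 3 of GRCr8, a newer assembly than that of the array, at chr3:80001697-80001946 for Hoxd10, chr3:80007756-80008005 for Hoxd9 and chr3:80014973-80015222 for Hoxd8.
Hoxd10, detected on 0 arrays: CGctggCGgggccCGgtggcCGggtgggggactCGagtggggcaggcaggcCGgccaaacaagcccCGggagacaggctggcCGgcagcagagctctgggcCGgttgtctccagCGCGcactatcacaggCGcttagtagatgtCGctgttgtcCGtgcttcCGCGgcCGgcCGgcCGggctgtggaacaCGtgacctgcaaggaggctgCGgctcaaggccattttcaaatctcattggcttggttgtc
Hoxd9, detected on 13 arrays: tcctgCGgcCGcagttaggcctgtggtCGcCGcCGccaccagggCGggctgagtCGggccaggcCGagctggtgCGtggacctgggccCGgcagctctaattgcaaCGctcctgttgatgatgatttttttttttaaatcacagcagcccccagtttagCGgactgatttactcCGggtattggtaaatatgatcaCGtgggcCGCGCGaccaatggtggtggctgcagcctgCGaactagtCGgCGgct
Hoxd8, detected on 13 arrays: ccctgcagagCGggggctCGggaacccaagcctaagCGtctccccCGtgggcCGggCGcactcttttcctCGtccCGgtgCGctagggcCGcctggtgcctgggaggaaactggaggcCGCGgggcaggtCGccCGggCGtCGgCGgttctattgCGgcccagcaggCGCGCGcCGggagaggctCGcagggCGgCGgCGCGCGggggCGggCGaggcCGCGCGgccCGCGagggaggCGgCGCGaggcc

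These windows held 21 CG for Hoxd10, 20 for Hoxd9 and 38 for Hoxd8, against a median of 5 over 33469 rat promoters of the same length. As many CG as before Hoxd9 were found in 16.7% of all promoters, and as many as before Hoxd8 in 1.69%. The 21 windows that RefSeq gave for 20 Hox genes had a median of 20 CG, with a range of 3 to 39. A window was given for 13 of the 29 genes. Those detected on at least 6 arrays had 3 CG (Hoxc4), 6 (Hoxa2), 12 (Hoxd4) and 20 (Hoxd9). The others had from 11 (Hoxa11 and Hoxd3) to 39 (Hoxa13). Whether CG content and detection go together was not tested.

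In the comparison of the groups, none of the 11 tested Hox genes passed the test. All 11 had a lower mean level in the KI-treated group, a count that was 9 with the 75th percentile taken over all spots, 10 in the authors' value table, 11 under quantile normalisation and 7 with array weights. The limma adjusted p-values of the 11 genes lay between 0.445 and 0.931, and 0 genes had an unadjusted p under 0.05. The share of all 25713 tested probes that passed was 0% after adjustment, where the lowest adjusted p was 0.257, and 12.7% before it, with 7.01% lower and 5.71% higher in the KI-treated group. The lower share of these unadjusted calls was 55.1%, against 38.3% with the percentile over all spots, 44.4% with quantile normalisation, 42.8% with normexp and quantile normalisation and 41.9% in the authors' value table, so the majority turned with each of these. It was 74.6% with normexp background correction and the main scaling. The median log2 difference was -0.24 over the 11 genes and -0.08 over all tested probes, of which 60.7% were lower in the KI-treated group with no test. For 7 genes the difference exceeded 1 standard error, a share that was not computed over all tested probes. The groups overlapped for all 11 genes (over all tested probes, 0.587% had groups that did not overlap). Without control 4, the rat that was highest for most of these genes, 9 of the 11 were lower, with a median of -0.18.

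**Figure D2:**
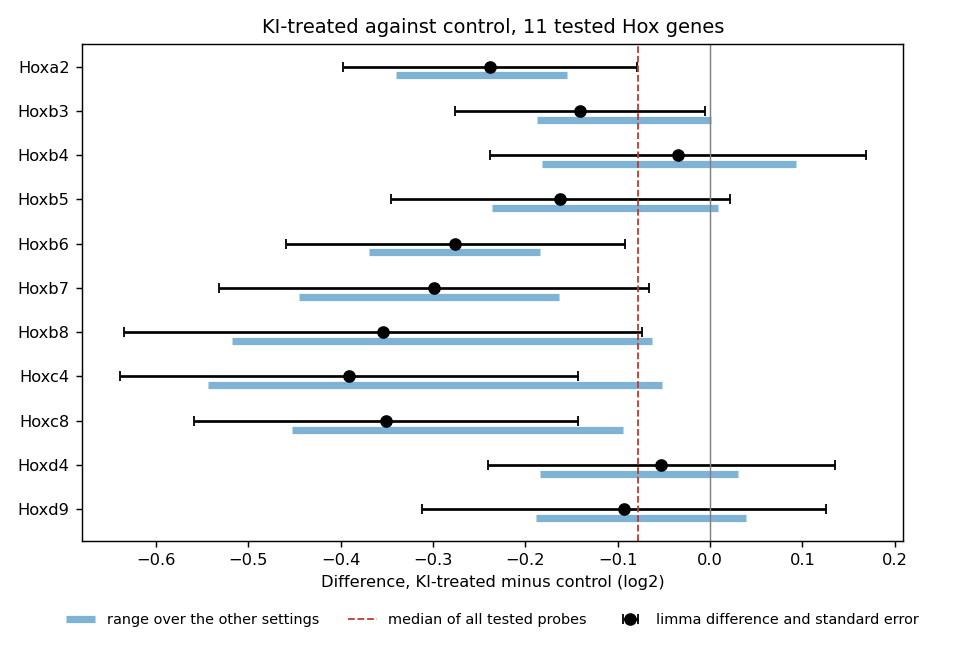
Log2 difference in level, KI-treated minus control, for the 11 tested Hox genes. Black points and bars are the limma difference and its standard error, blue bars the range over the other normalisations, models and left-out arrays, and the dashed line the median of all tested probes at -0.08. All points lie left of 0, between -0.39 and -0.03, and for Hoxb3, Hoxb4, Hoxb5, Hoxd4 and Hoxd9 the blue bar reaches past 0.

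Paralog group 3 was represented by Hoxb3, since Hoxd3 was too rarely detected to be tested. The level of Hoxb3 lay between -0.89 and -0.68 in the KI-treated group, with a median of -0.77, and between -0.90 and -0.07 in the control group, with a median of -0.78. The medians nearly coincided, and the higher control mean came from control 4 at -0.07 and control 6 at -0.42. The difference was -0.14 with a standard error of 0.14 (limma adjusted p = 0.592, exact permutation p = 0.348). The SD between rats was 0.08 in the KI-treated group and 0.30 in the control group. A second Hoxb3 probe, from another transcript model, was detected on 0 arrays.

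Hoxa2, which sets the identity of the second pharyngeal arch, lay between -0.95 and -0.39 in the KI-treated group, with a median of -0.71. In the control group it lay between -1.05 and -0.10, with a median of -0.35. All 6 KI-treated rats were below the control median, but control 2 was the lowest of all 13. The difference was -0.24 with a standard error of 0.16 (limma adjusted p = 0.479, exact permutation p = 0.159). The other Hoxa2 probe, also detected on 13 arrays, differed by -0.20.

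Hoxb6 and Hoxb7, neighbours in HoxB with broad roles along the trunk, were detected on every array. Hoxb6 ranged from 0.67 to 1.56 in the KI-treated group, with a median of 1.12, and from 0.84 to 1.72 in the control group, with a median of 1.37. Hoxb7 ranged from 0.31 to 1.72 in the KI-treated group, with a median of 0.97, and from 0.51 to 1.66 in the control group, with a median of 1.44. KI 2, KI 3 and control 1 were the 3 lowest rats for both genes, and the other rats of the 2 groups were interleaved. Hoxb6 differed by -0.28 with a standard error of 0.18 (limma adjusted p = 0.478, exact permutation p = 0.168). Hoxb7 differed by -0.30 with a standard error of 0.23 (limma adjusted p = 0.526, exact permutation p = 0.255). The 2 Hoxb6 probes carry the same 60 bases, and their levels on an array differed by at most 0.18.

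Hoxb8, known for its role in myeloid progenitors and trunk patterning, was the most tailward tested gene of HoxB. It lay between -4.92 and -3.84 in the KI-treated group, with a median of -4.34, and between -4.98 and -3.20 in the control group, with a median of -3.85. Control 1 was the highest rat and control 4 the lowest, so both ends of the range were controls. The difference was -0.35 with a standard error of 0.28 (limma adjusted p = 0.531, exact permutation p = 0.269).

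Hoxc4 and Hoxc8 were the 2 tested genes of HoxC, and both were close to background. Hoxc4 lay between -5.25 and -3.86 in the KI-treated group, with a median of -4.64, and between -4.94 and -3.41 in the control group, with a median of -4.39. Its difference was -0.39 with a standard error of 0.25 (limma adjusted p = 0.466, exact permutation p = 0.178). KI 6, at the top of its group, was higher than all controls but control 4. Hoxc8, known from the thoracic skeleton and spinal motor neurons, lay between -4.42 and -3.79 in the KI-treated group, with a median of -3.85. In the control group it lay between -4.26 and -2.84, with a median of -3.72. All 6 KI-treated rats were below the control median, as for Hoxa2, and control 4 was again the highest rat. The difference was -0.35 with a standard error of 0.21 (limma adjusted p = 0.445, exact permutation p = 0.142), which was the smallest p of the 11 genes. With normexp and quantile normalisation the differences shrank to -0.05 for Hoxc4, -0.09 for Hoxc8 and -0.06 for Hoxb8, and in the authors' value table they were -0.11, -0.14 and -0.10.

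Hoxd9, a tailward gene best known from limb and lower spine, lay between -1.66 and -0.69 in the KI-treated group, with a median of -1.03. In the control group it lay between -1.58 and -0.21, with a median of -1.10. The KI-treated median was the higher of the 2 while its mean was the lower, by 0.09, which was within the standard error of 0.22 (limma adjusted p = 0.823, exact permutation p = 0.702). Hoxd4, Hoxb4 and Hoxb5, genes of the neck and upper trunk, also differed by less than their standard errors. Hoxd4 lay between -3.30 and -2.02 over all rats and differed by -0.05, with an error of 0.19 and an exact permutation p of 0.800. Hoxb4 lay between -2.67 and -1.53 and differed by -0.03, with an error of 0.20 and an exact permutation p of 0.872. Hoxb5 lay between 0.05 and 1.25 and differed by -0.16, with an error of 0.18 and an exact permutation p of 0.428.

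**Figure D3:**
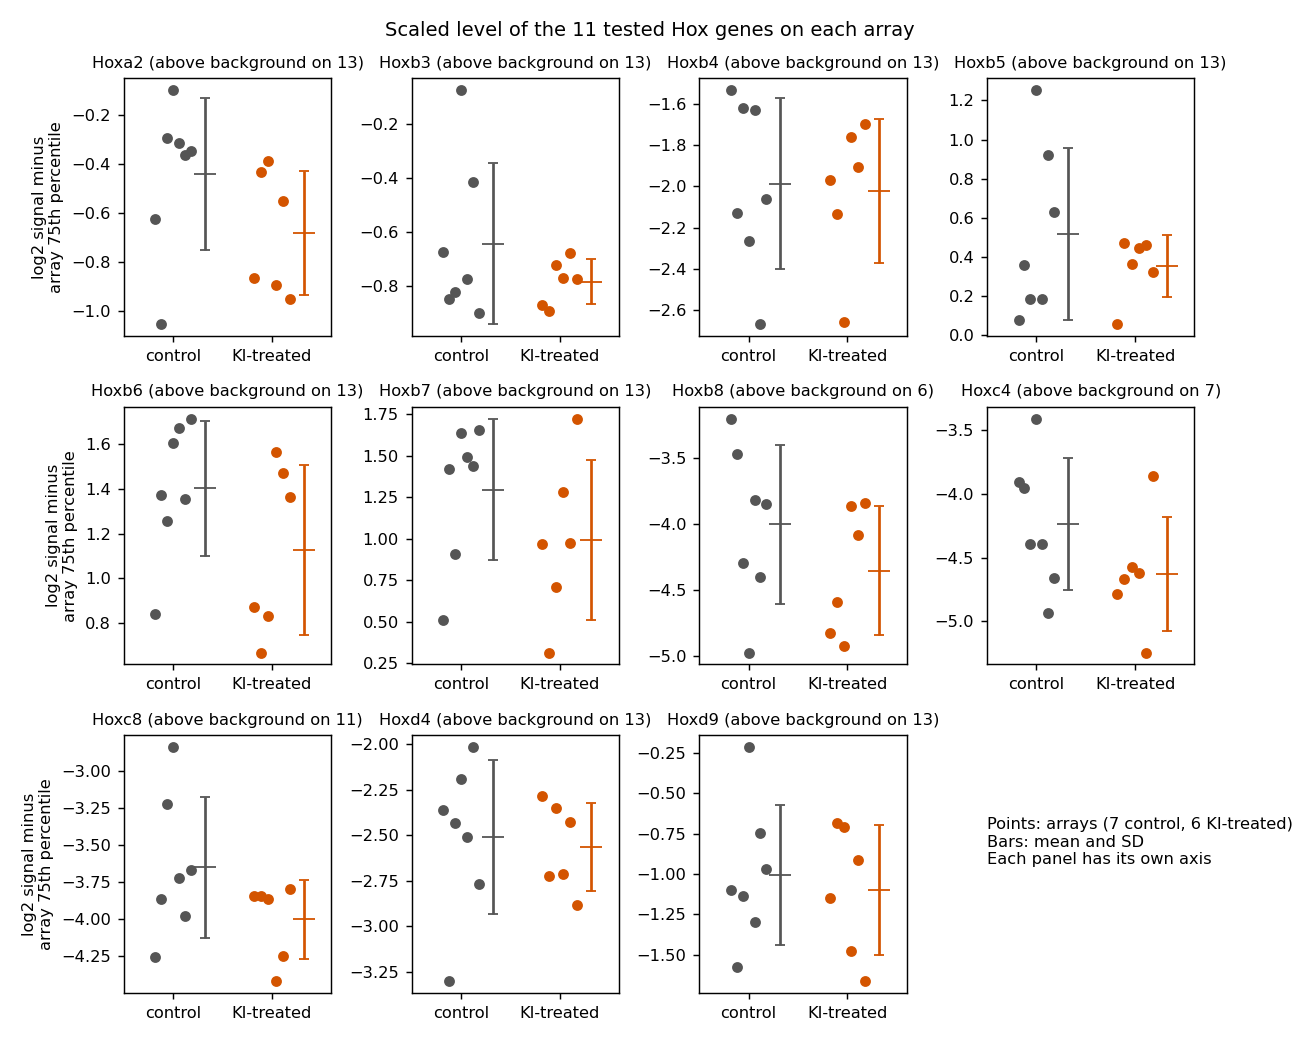
Level of each tested Hox gene on each array, as log2 signal minus the array's 75th percentile, with a separate axis for each gene. Points are rats, 7 control and 6 KI-treated, and bars are the mean and SD of a group. The groups overlap in every panel, and control 4 is the highest point for Hoxa2, Hoxb3, Hoxb5, Hoxc4, Hoxc8 and Hoxd9.

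For each of the 11 genes the SD pooled over the 2 groups was larger than the difference between them. This pooled SD ran from 0.23 for Hoxb3 to 0.55 for Hoxb8, and 9 of the 11 genes were above the median SD of all tested probes, 0.31. Control 4 was the highest of the 13 rats for 6 genes, Hoxa2, Hoxb3, Hoxb5, Hoxc4, Hoxc8 and Hoxd9, and the lowest for Hoxb8. No other rat was highest for more than 2 genes. The share of all tested probes that were highest in control 4 was not computed. Of the thyroid lineage factors, Nkx2-1, Pax8 and Foxe1 were also highest in control 4, and Hhex in control 2. The log2 75th percentile subtracted from each level was 8.18 for control 4 and 7.92 for control 6. For the other rats it was 8.48 to 9.10. The summed level of the fibroblast markers was also highest in control 4, at 8.11 against a control median of 7.54, and that of the endothelial markers at 7.31 against 6.63. The follicle, parathyroid, adipocyte, nerve and red blood cell lists were highest in control 6. The remaining lists were highest in control 5 or in a KI-treated rat. The part of cell content or of the scaling in the Hox levels of control 4 was not tested.

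**Figure D4:**
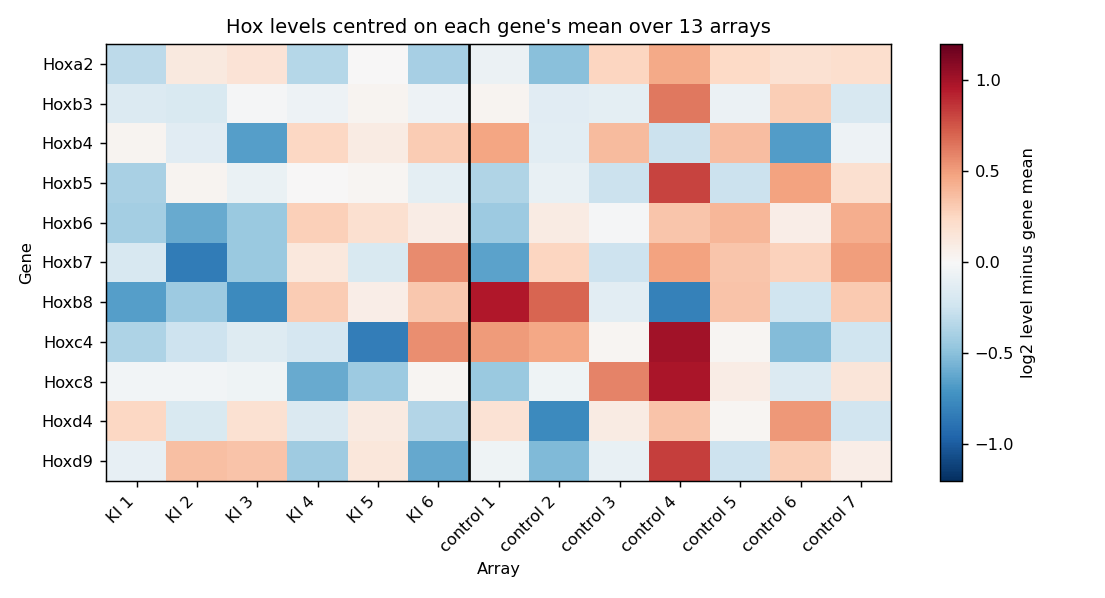
Level of each tested Hox gene on each array minus the mean of that gene over 13 arrays, in log2 units, with KI-treated rats left of the line and controls right of it. Red is above and blue below the gene's mean. The column of control 4 is red for most genes and blue for Hoxb4 and Hoxb8.

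Within scan sessions the differences varied in sign. Hoxc4 was lower in the KI-treated rats in all 3 sessions, by -0.45, -0.70 and -0.14, and the other 10 genes had both signs. Hoxb7 differed by -1.02 in session 1, which holds control 4, by 0.26 in session 2 and by -0.07 in session 3. Hoxb8 differed by -0.07, -0.92 and 0.13. Each session held 1 to 3 rats of a group. Among the marker lists, the summed level of skeletal muscle markers differed by -1.16 on the log2 scale, KI-treated minus control, with 2.12 to 6.36 in the KI-treated group and 4.48 to 7.52 in the control group. The lymphocyte markers reached 3.95 in KI 1 against a highest control value of 0.02. The thymus markers reached 0.97 in KI 1, against a KI-treated median of -4.67 and a highest control value of -3.40. Their part in the Hox differences was not tested.

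Some genes of the clusters are on the array under other names and fell outside the naming rule. The files' descriptions identified 24 such probes. With those that lie in the clusters, 16 Hox genes were detected on at least 6 arrays. Hoxa4 and Hoxa5 were detected on all 13 arrays and Hoxa3 on 10, which extends the HoxA run from group 2 to group 5. Another Hoxb2 probe was detected on 9 arrays. Between the groups, this probe of Hoxa3, required for the thymus and parathyroid to form, differed by -0.40 with a standard error of 0.20 (limma adjusted p = 0.407). The other Hoxa3 probe, detected on 5 arrays and so not in the limma test, differed by 0.29 (exact permutation p = 0.0979). The Hoxb2 probe detected on 9 arrays differed by -0.41 with a standard error of 0.19 (limma adjusted p = 0.389, unadjusted p = 0.0445).

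Hoxd8 is listed under a LOC name and was identified by its RefSeq gene number. Its mean was higher in the KI-treated group, while its neighbours Hoxd9 and Hoxd4 differed by less than their standard errors. Hoxd8 was singled out after its values were seen. Its probe at chromosome 3, 57322480, was detected on all 13 arrays and lay between -1.62 and -0.97 in the KI-treated group, with a median of -1.38. In the control group it lay between -2.07 and -1.50, with a median of -1.98. All 6 KI-treated rats were above the control median, and the groups overlapped only through KI 6 at -1.62 and control 1 at -1.50. The difference was 0.56 with a standard error of 0.14, which did not pass after adjustment (limma adjusted p = 0.342, exact permutation p = 0.00233), and 50 of the 25713 tested probes had a limma p as small. Within sessions it was 0.95, 0.15 and 0.51. In session 2 Hoxd9 and Hoxd4 were also higher in the KI-treated rats, by 0.10 and 0.30. They were lower in sessions 1 and 3. A second probe of this gene, at 57317743, was detected on 0 arrays, so the difference rests on 1 probe. The difference between Hoxd8 and its neighbours Hoxd9 and Hoxd4 was not itself tested.

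**Figure D5:**
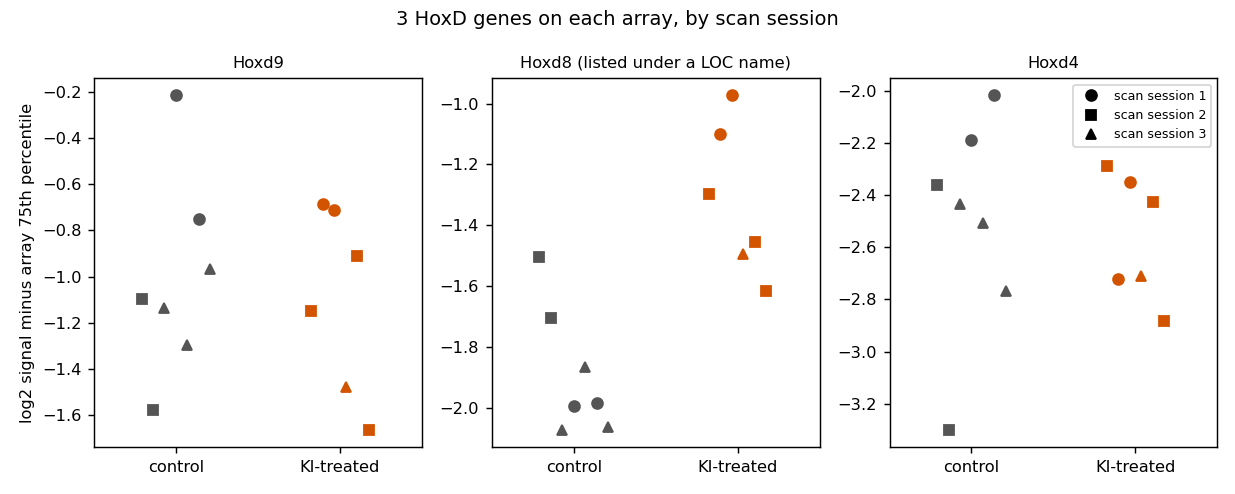
Level of 3 neighbouring HoxD genes on each array, as log2 signal minus the array's 75th percentile, by group and with the symbol giving the scan session. Each panel has its own axis. For Hoxd8 the KI-treated rats lie between -1.62 and -0.97 and the controls between -2.07 and -1.50, while for Hoxd9 and Hoxd4 the groups lie over one another.

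Genes that work with or control Hox genes were also read. Of 68 listed genes, 61 had a probe and 55 were tested, and 0 passed after adjustment. Before adjustment 2 were higher and 2 lower with a p under 0.05, a smaller share than the 12.7% over all tested probes. By role, 2 of 22 polycomb and trithorax regulators were higher with such a p, and 0 of 7 caudal and cluster-linked factors and 0 of 4 thyroid lineage factors had one.

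Eed and Ezh2, subunits of the polycomb complex that keeps Hox genes silent, were the 2 genes with such a p that were higher in the KI-treated group. Eed lay between -2.03 and -1.73 in the KI-treated group and between -2.92 and -1.70 in the control group, a difference of 0.43 with a standard error of 0.20 (limma adjusted p = 0.390, exact permutation p = 0.0717). Ezh2 lay between -2.96 and -2.02 in the KI-treated group and between -4.01 and -2.68 in the control group, a difference of 0.55 with a standard error of 0.26 (limma adjusted p = 0.391, exact permutation p = 0.0874). Ezh2 was detected on all 6 KI-treated arrays but on 5 of the 7 control arrays. Its lowest value, -4.01 in control 6, was below -3.99, the lowest level of any detected probe on that array. Suz12, a partner of Eed and Ezh2, differed by 0.08 with a standard error of 0.15. Most of the role went the other way. Of its 22 tested genes, 15 were lower in the KI-treated group with no test, and the median difference was -0.08. Over all tested probes 60.7% were lower. The thyroid lineage factors Nkx2-1, Pax8, Foxe1 and Hhex had differences between -0.44 and -0.13, and none passed the test.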

How the data were processed

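Thyroid RNA of 13 rats was labelled with Cy3 and hybridised to Agilent rat arrays, 1 per rat. The deposited scanner files hold fluorescence intensity per spot, background-subtracted by the authors' scanner software (Feature Extraction 10.7.3.1), with flags for spots well above background. The authors also deposited a value table on the log2 scale, which follows the median spot intensity by rank, with nearly equal quantiles between arrays. It was used as an alternative only.

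The log2 processed intensity was averaged over the unflagged spots of a probe, and the array's 75th percentile over probes was subtracted. A probe was called well above background on an array where 50% or more of its spots were, and tested where this held on at least 6 arrays (25713 of 45598 probes). Groups were compared with limma (version 3.58.1, R 4.3.3) and Benjamini-Hochberg adjustment at 0.05 over all tested probes, with no block, and single genes also by a two-sided exact permutation test over all 1716 splits of the rats. For 63 tested probes the fit lacked a value on some array. No p-value was adjusted over the Hox genes alone. The code was tested on simulated data.

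Named genes were the 6 Hox genes with the smallest limma p, since none was under 0.05, the tested member of paralog group 3, and the most tailward tested gene of each cluster. Of the cofactor and regulator lists, genes with an unadjusted p under 0.05 were named. The values of a few genes are not reported here. Probe names are those of the array design, and 23 of 29 accessions matched RefSeq (GRCr8), 1 under another symbol. The members and lists were chosen with earlier results of these data known. The alternatives were other background corrections, normalisations, filters, blocks for slide, scan session and replicate number, array weights, the methods' t-test, and leaving out each array. The number of arrays limits the precision.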

Additional observations from a re-analysis of the deposited data

Results flagged for a closer look

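A sample far from the rest of its group was found in 6 of 60 sets of values (30 genes in 2 groups). A chance rate of about 1 in 20 assumes independent sets of normally distributed values. The 60 sets share 13 arrays and many lie near background, so their count was not read against that rate. Only 1 of the 6 samples concerned a tested gene, Hoxb5. Its value in KI 1, 0.055, was the lowest of the KI-treated group, with 0.32 the next. Hoxb13, a tailward gene known from the prostate, was at -1.04 in KI 5 while the next KI-treated rat was at -6.26. Hoxb9 was at -1.24 in control 2 while the next control was at -5.61. Each of these 2 was well above background on that array alone. The other 3 values were not well above background. Hoxb2 was at -6.24 in control 4 against -5.10 for the next control, Hoxc5 was at -4.36 in control 5 against -5.59, and Hoxd3 was at -6.40 in KI 2 against -4.92. No explanation of these values was tested.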

How the results depend on the processing

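No Hox gene and no cofactor or regulator passed the adjusted threshold under any alternative run. Before adjustment the Hox genes with a p under 0.05 numbered 0 in the main analysis, by the methods' t-test and with any block, 1 with array weights, 3 after normexp background correction at the same scaling, and 0 to 1 when an array was left out. Over all probes the number of calls was 0 in the main analysis and under the other normalisations, filters and blocks, by the methods' t-test with Benjamini-Hochberg adjustment or q-values, and 50 with array weights. It was 0 to 1 when an array was left out, with 1 call without control 1 and 1 without control 2. The median Hox difference stayed below 0, from -0.24 to -0.09 over the other settings and from -0.26 to -0.18 when an array was left out. Of single genes, Hoxb4, at -0.03, turned to 0.044 with the 75th percentile over all spots (an alternative chosen after seeing the data) and to 0.015 with the scan session as a block, and ranged from -0.15 to 0.093 when an array was left out. Hoxd4 turned to 0.027 with the percentile over all spots, 0.030 with array weights and 0.0020 in the authors' value table, and ranged from -0.18 to 0.030 without 1 array. Hoxd9 turned to 0.023 with array weights and ranged from -0.19 to 0.039 without 1 array. Array weights also turned Hoxb3 to 0.0012 and Hoxb5 to 0.0086. The cause of these changes was not tested. Hoxa2, Hoxb6, Hoxb7, Hoxb8, Hoxc4 and Hoxc8 kept their direction in all settings in which they were tested, though with normexp and quantile normalisation Hoxc4 moved from -0.39 to -0.05, Hoxb8 from -0.35 to -0.06 and Hoxc8 from -0.35 to -0.09. So did the difference of Hoxd8, which ran from 0.34 to 0.64 over 25 settings with adjusted p-values of 0.0717 to 0.539. The number of Hox genes detected was 11, and 17 when detection on at least 1 array was enough.

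The replicate numbers are shared between the groups but do not pair the rats. Same-numbered rats correlated at -0.11 to 0.07 and 0 of 6 correlated best with their own number. With the replicate block, 0 probes and 0 Hox genes were called and the median Hox difference was -0.22. Hoxb8 and Hoxc4 were near background, where the signal limits what a difference can show. The 18 Hox genes below the detection limit were not tested.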

Other observations

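The 2 isolated values of Hoxb13 and Hoxb9 had a counterpart in the dimmer of the 2 Hoxd3 probes, which was at -1.70 in KI 3 and at -4.91 or below in the other 12 rats. The 3 values came from 3 different rats and 2 clusters.

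Several genes were read differently by their own probes. Hoxb5 had 4 probes, of which 3 were detected on all 13 arrays and 1 on 1 array. Of these 3, the probe at 85075140 lay between the probes of Hoxb4 and Hoxb3. Hoxd4 had a probe on 13 arrays, from a predicted transcript model, and another on 1, from a curated transcript. A probe described as Hox-A13-like, without a position in the files, was detected on all 13 arrays while the Hoxa13 probe was detected on 0, and a probe described as Hox-D9-like lay on chromosome 6, outside the clusters, and was detected on all 13.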
